A study of Mus musculus with 6 samples.

Results

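The 40 genes described here run the cell division cycle and license DNA replication in mouse embryonic stem cells (mESCs). They were taken by symbol from a list of names, and all 40 were found among the 39017 genes of the deposited RNA-Seq count tables. They encode cyclins, cyclin-dependent kinases (CDKs) with their activators and inhibitors, E2F and Rb proteins, the origin licensing factors with the MCM ring, the replication clamp, and proteins of mitosis. Measured by polyA RNA-Seq, mRNA levels were compared among 3 groups of 2 libraries each. All cells were of the V6.5 mESC line, which came from a cross of C57BL/6 and 129/sv mice and was grown on irradiated mouse embryonic fibroblasts with LIF. The paper says that cells for experiments were harvested after 2 passages of these feeders, and whether any feeders remained is not stated.

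In the Pol II degron cells, RPB1, the largest subunit of Pol II, was fused at its C-terminus to mAID and GFP at both alleles, and a cassette for OsTIR1, the plant F-box protein that marks mAID fusions for degradation when auxin is present, sat at Rosa26. The line was clonal and chosen for the efficiency of degradation. Whether 1 clone or several were used is not stated. Both degron groups received 1 μg/ml doxycycline for 12 h to induce OsTIR1. The untreated group received no auxin, and the auxin-treated group received 500 μM indole-3-acetic acid (auxin) for 6 h. The third group was labelled as wild type for Pol II, and whether it received doxycycline is not given in the sources used here. The paper compared these groups to learn what the loss of Pol II does to mature mRNAs, and whether the tagged cells without auxin could stand for wild-type cells.

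Passage through the cycle is driven by CDKs, whose activity depends on the cyclin bound to them. D cyclins with Cdk4 or Cdk6 and E cyclins with Cdk2 act on Rb, which holds back the E2F transcription factors until it is phosphorylated. In G1, Cdc6 and Cdt1 load the ring of Mcm2 to Mcm7 onto origins, and geminin (Gmnn) blocks a second loading in the same cycle. Cyclins A and B with Cdk1 then carry the cell into mitosis. Embryonic stem cells are known for a short G1 phase and high CDK activity, and many mRNAs of this set rise and fall with the phase of the cycle. In bulk RNA, fewer cells in a phase and less mRNA per cell cannot be told apart. The study assayed cell cycle phase separately, and it reports comparable cell cycles in wild-type and degron cells given doxycycline and auxin. It also reports that mRNA profiles of wild-type and tagged cells were highly correlated. The cell cycle measurements were not analysed here.

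The libraries held between 14094022 and 15358714 counted reads, and each member had at least 89 counts in every library. By the mm10 annotation all 40 are protein coding, and 18 overlap a gene on the opposite strand and 5 one on the same strand, whose reads may be mixed with theirs, since the use of strand in counting is not stated. Levels are given as CPM, counts per 1000000 after TMM scaling over the 6 libraries. All 10 pluripotency markers examined were present in every library, at a summed 4365 and 4988 CPM in untreated, 3657 and 3923 CPM in auxin-treated and 7656 and 7565 CPM in wild-type libraries. Since irradiated fibroblasts do not divide, 11 of their markers were summed as well, to 266 and 249 CPM, 299.8 and 345 CPM, and 173 and 175 CPM in the same order. Of these, Lum was at 0 in all but the second wild-type library and Dcn at 4 counts or fewer in every library. Against untreated, edgeR called 0 of the 10 pluripotency markers higher and 4 lower after auxin, and 7 higher and 1 lower in wild type. Of the feeder markers that could be tested, 2 of 9 were higher after auxin, and 1 of 8 was higher and 4 lower in wild type. Over all genes tested, 2.56% were called higher and 1.64% lower after auxin. In wild type 29.9% were called higher and 30.7% lower, 60.6% in either direction. The extraction text of the wild-type libraries names retinas, but the photoreceptor genes Rcvrn and Crx were at 0 in all 6 libraries. The 13 mitochondrial mRNAs took 0.342% to 0.441% of the counts in the degron libraries and 1.53% and 1.5% in the wild-type libraries. The wild-type libraries were deposited in a table of their own, and the labels do not say whether they were prepared together with the degron libraries, so any such difference and the genotype cannot be told apart. Polr2a, the mRNA of the tagged subunit, does not measure the loss of the protein. It stood at 462 and 452 CPM in the untreated, 652 and 688 CPM in the auxin-treated and 484 and 498 CPM in the wild-type libraries, and was higher after auxin (log2 fold change 0.57, standard error 0.07, edgeR adjusted p = 0.00117). That call was not made with scaling to mitochondrial mRNAs (log2 fold change 0.40, edgeR adjusted p = 0.279) or without auxin-treated replicate 2 (0.53, edgeR adjusted p = 0.0515).

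Of the 40 members, 30 had promoter windows in the RefSeq table of build GRCm38.p6 (mm10), and Ccnd1, Ccnd2, Ccne2, Rb1, Gmnn, Mcm4, Ccna2, Cdc25c, Wee1 and Aurkb did not. The windows ran from 250 bases before to 50 bases after a gene's start. E2F sites were searched as TTTCCCGC, TTTGGCGC, TTTGCCGC and TTTCGCGC on both strands, where a site and its partner on the other strand can overlap. Such a word was found for 12 of the 30 members, compared with 2.60% of the 27025 genes with a window. It was found for 6 of the 7 licensing genes that had a window and for 1 of the 10 G2 and M phase genes. The cell cycle homology region (CHR), searched as TTTGAA on both strands, was found for 11 of the 30 members and 20.2% of all genes, among them 8 of the 10 G2 and M phase genes and 1 of the 7 licensing genes. A CCAAT box (CCAAT on both strands) was found for 24 of the 30 members and 41.1% of all genes, and for all 10 G2 and M phase genes. These matches describe letters and do not show that a factor bound there. Sites of 30 bases are shown for members the results below turn on, on the strand of the gene, so that a word on the other strand appears as its reverse complement. Genes with the E2F word in capitals:
Cdc6, chr11:98908002-98908031, plus strand: gccggtggagaGCGGGAAAtcgcctggggt
Cdt1, chr8:122568035-122568064, plus strand: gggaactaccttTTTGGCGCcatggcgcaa
Mcm3, chr1:20820275-20820304, minus strand: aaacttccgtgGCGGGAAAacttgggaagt
Mcm7, chr5:138172030-138172059, minus strand: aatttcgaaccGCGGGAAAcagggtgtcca
Cdc25a, chr9:109875501-109875530, plus strand: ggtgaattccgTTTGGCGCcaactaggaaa
E2f2, chr4:136172294-136172323, plus strand: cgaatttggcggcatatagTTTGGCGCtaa
Mitotic genes with the CHR in capitals:
Cdk1, chr10:69352966-69352995, minus strand: ctgattggctccTTTGAAcgtctacgtgca
Cdc20, chr4:118437344-118437373, minus strand: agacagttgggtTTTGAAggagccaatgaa
Top2a, chr11:99024195-99024224, minus strand: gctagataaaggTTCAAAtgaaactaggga
Mki67, chr7:135716478-135716507, minus strand: ttagcgccagaaTTTGAAccgccgttttgg
Plk1, chr7:122159453-122159482, plus strand: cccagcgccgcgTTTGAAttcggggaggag
Aurka, chr2:172370521-172370550, minus strand: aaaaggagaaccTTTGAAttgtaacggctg

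In untreated degron cells the members were expressed over a wide range. Per length of exon, Cdc20 mRNA was the most abundant, at 126 CPM per kilobase of exon (RPKM), and Cdk6 mRNA the least, at 1.32 RPKM. This order depends on the annotated exon lengths, which ran from 1172 to 13989 bases, the last that of Cdk6. The median over the 40 members was 28.4 RPKM, and 31 of them were at 10 RPKM or more. Cdc20 and Cdk6 also stood at the ends of this order in auxin-treated cells (137 and 1.28 RPKM) and in wild-type cells (203 and 1.67 RPKM). Summed over the members, mRNA levels were 5459 and 5922 CPM in untreated, 5195 and 5346 CPM in auxin-treated and 9614 and 9555 CPM in wild-type libraries. The wild-type sums lay above both other groups, and the auxin-treated sums just under the untreated ones. Between the untreated replicates the members differed by a median of 0.10 on the log2 scale, with replicate 2 higher, compared with 0.05 between the auxin-treated and −0.02 between the wild-type replicates.

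**Figure D1:**
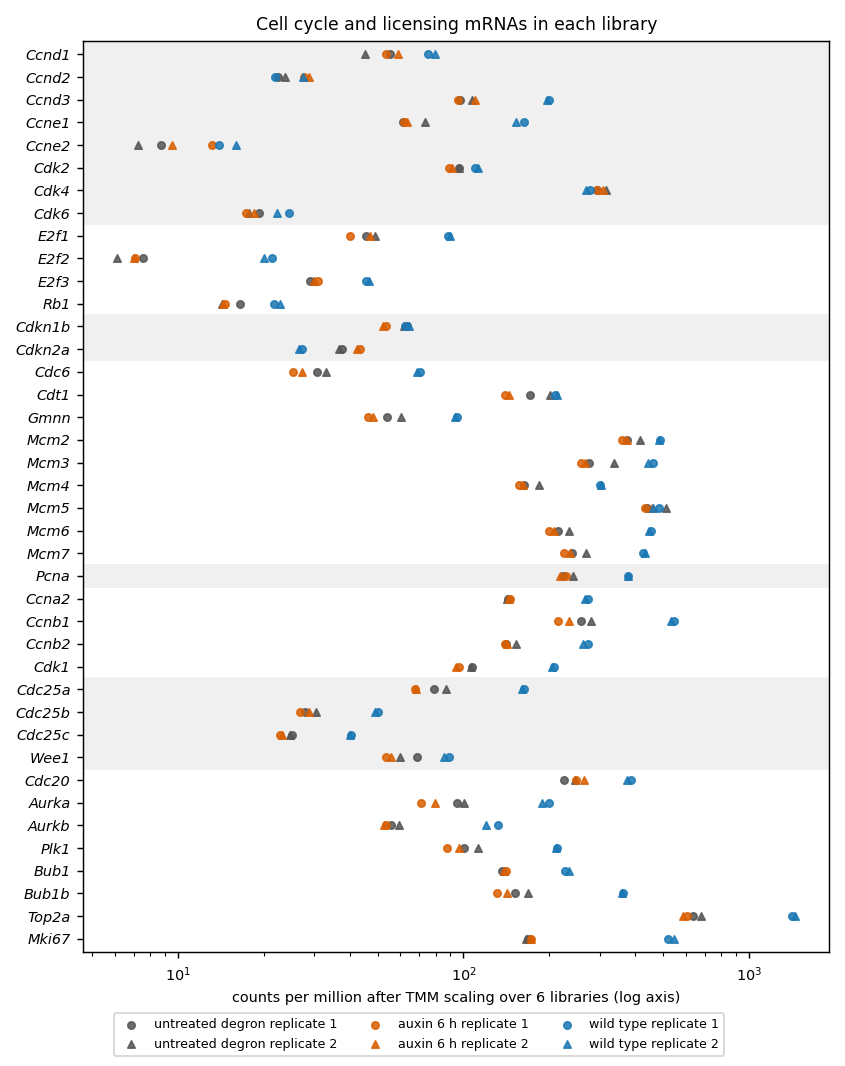
The level of each of the 40 mRNAs in each of the 6 libraries, in CPM on a log axis, with genes ordered by role, the roles set apart by alternate shading, and circles for replicate 1 and triangles for replicate 2. Grey (untreated) and orange (auxin) points lie close together, while blue (wild type) points lie to their right for most genes.

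**Figure D2:**
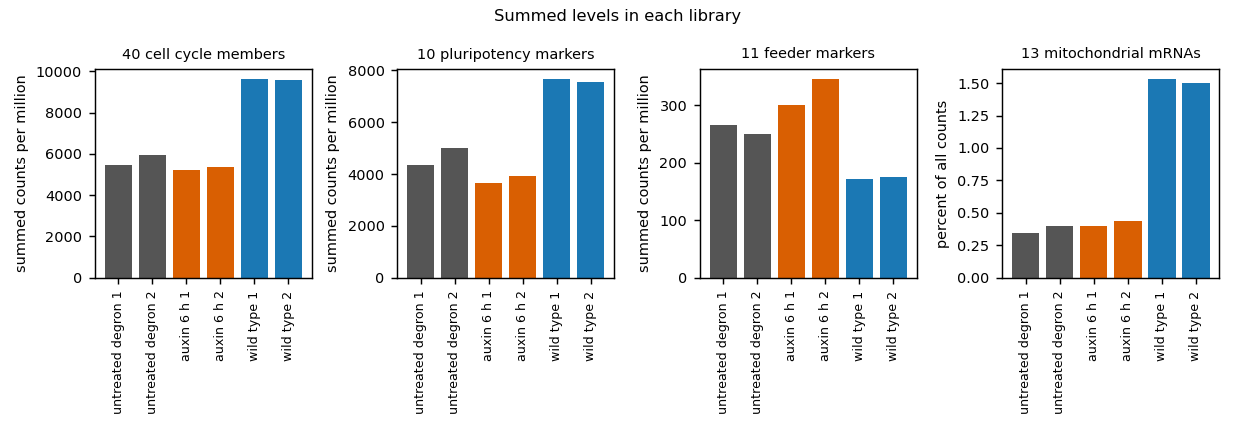
Bars give, for each of the 6 libraries, the summed CPM of the 40 members, of 10 pluripotency markers and of 11 feeder fibroblast markers, and the percent of all counts on 13 mitochondrial mRNAs. The wild-type libraries stand at 9614 and 9555 CPM for the members, the highest of the 3 groups.

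After 6 h of auxin, most cell cycle and licensing mRNAs were called neither higher nor lower than in untreated cells, relative to all mRNAs. Of the 40 members tested, 0 were called higher and 2 lower by edgeR's quasi-likelihood test at an adjusted p under 0.05, where over all 16128 genes tested 2.56% were called higher and 1.64% lower (4.2% in either direction). At an unadjusted p under 0.05, 3 members were higher and 11 lower, with 20.1% of all genes passing in either direction. DESeq2 also called 0 higher and 2 lower. The median log2 fold change of the members was −0.09, beside 0.00 for all genes tested, and 33 of 40 lay within 0.25 of no change. No member passed 1 on the log2 scale, as 1.49% of all genes did in the higher direction with a call and 1.53% in either, and the values ran from −0.37 (Cdt1) to 0.53 (Ccne2). Standard errors of the members were between 0.06 and 0.18. Both auxin-treated libraries lay below both untreated ones for 20 members and above them for 7, compared with 28.4% and 22.4% of all genes tested (50.8% in either direction). The median shift of the members was no larger than the gap of 0.10 between the untreated replicates. When untreated replicate 1 was left out, the median of the members was −0.13, and without untreated replicate 2 it was −0.05. Without auxin-treated replicate 1 or 2 it was −0.07 or −0.10. The median of all genes was 0.00 in each of these fits. The number of members called also changed with the library left out, as given in the closing section. In the same libraries the summed pluripotency markers were lower and the feeder markers higher than in untreated ones, by the values above, and their part in the result was not tested.

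The members called lower were Cdt1 and Aurka. Cdt1, which brings the MCM ring to origins, lies on chromosome 8 from 122568015 to 122573554 (mm10) and was at 172 and 201 CPM in the untreated, 140.2 and 145 CPM in the auxin-treated and 209 and 213 CPM in the wild-type libraries. The auxin-treated libraries did not overlap with the untreated ones (log2 fold change −0.37, standard error 0.08, edgeR adjusted p = 0.0216). Its annotation overlaps Gm20388 on the same strand, so its counts are less certain. Aurka, the kinase Aurora A that acts at spindle poles, lies on chromosome 2 from 172356190 to 172370535 and overlaps no other annotated gene. It was at 95.3 and 100.5 CPM in the untreated, 71.1 and 79.7 CPM in the auxin-treated and 199 and 188 CPM in the wild-type libraries, with both auxin-treated libraries below the rest (log2 fold change −0.36, standard error 0.07, edgeR adjusted p = 0.0192). Neither call was made with scaling to mitochondrial mRNAs or without the filter on low counts. The fold changes were as large or larger there, but the median of all genes moved the same way, to −0.17 and −0.02. For Cdt1 the log2 fold change was −0.53, edgeR adjusted p = 0.155 with mitochondrial scaling and −0.39, edgeR adjusted p = 0.127 without the filter. For Aurka it was −0.53, edgeR adjusted p = 0.193 and −0.38, edgeR adjusted p = 0.115. With either auxin-treated replicate left out, neither gene was called. The log2 fold change of Cdt1 was then −0.35 (without replicate 1) or −0.39 (without replicate 2). That of Aurka was smaller without replicate 1, at −0.28. The Cdt1 window held an E2F word and the Aurka window a CHR, both printed above.

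In the libraries labelled wild type, by contrast, most of these mRNAs were higher than in untreated degron cells. Of the 40 members tested, 34 were called higher and 2 lower by edgeR's quasi-likelihood test at an adjusted p under 0.05, and 4 were not called. Over the 15778 genes tested, 29.9% were called higher and 30.7% lower (60.6% in either direction). The members' median log2 fold change was 0.75, a 1.68-fold difference, beside −0.01 for all genes tested, with a range from −0.47 (Cdkn2a) to 1.67 (Mki67). A difference of more than 1 was found for 7 members, all higher, where 7.12% of all genes were called higher with such a difference (18.1% in either direction). At an unadjusted p under 0.05, 35 members were higher and 2 lower, with 64.6% of all genes passing in either direction. Both wild-type libraries lay above both untreated ones for 35 members and below them for 2, compared with 40.5% and 40.5% of all genes tested (81% in either direction). The direction holds under scalings set by all mRNAs. Scaled to the mitochondrial mRNAs, which were several times more abundant in wild-type libraries, the median of all genes was −2.10 and all 40 members were called lower (median −1.34). Relative to the median gene, a measure that a change of scaling leaves nearly as it was by construction, the members' median lay 0.76 higher and 37 of the 40 members were above it. The pluripotency markers were also higher in wild-type libraries in sum and the feeder markers lower, with more mitochondrial mRNA, as given above, and their part in the result was not tested. Both comparisons use the same untreated libraries.

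**Figure D3:**
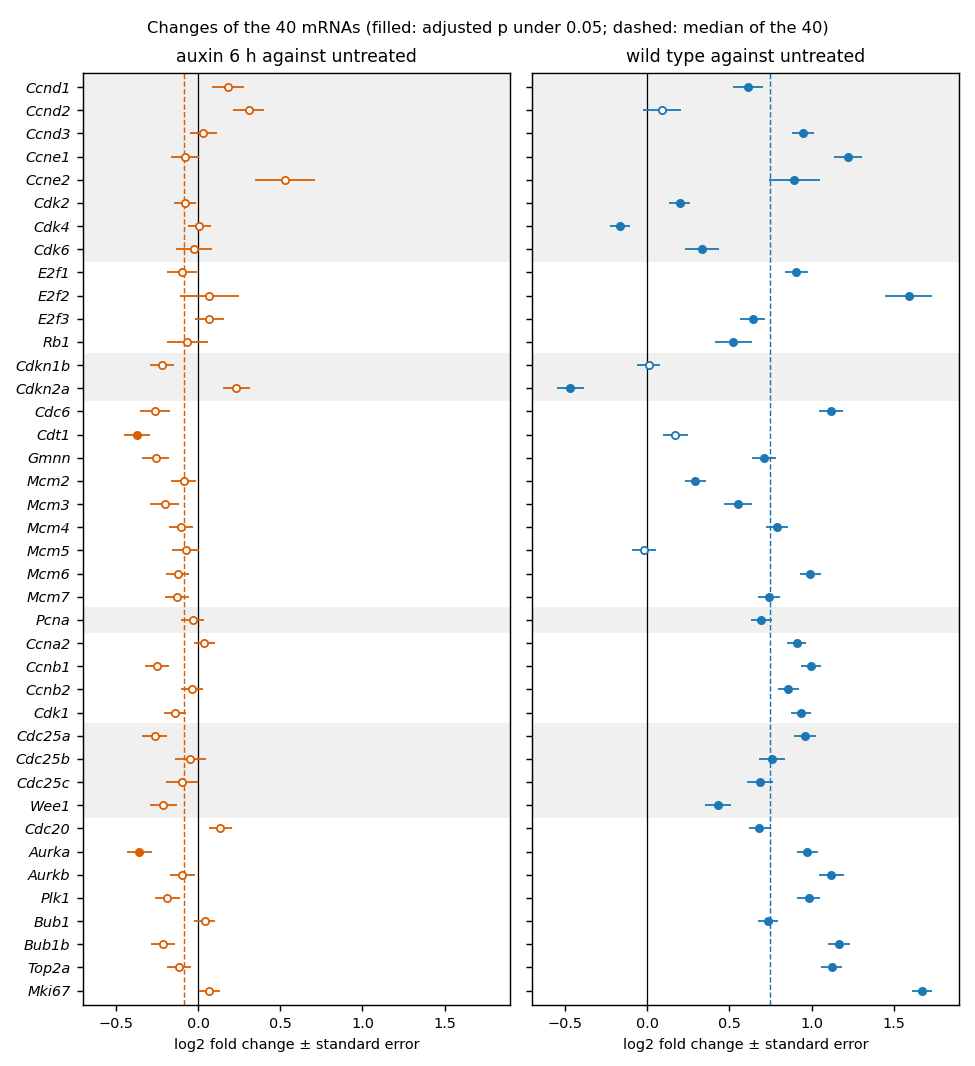
Log2 fold change of each member with its standard error, for auxin 6 h (left, orange) and wild type (right, blue), each against untreated. Filled points passed an adjusted p under 0.05, and the dashed lines mark the medians over the members, −0.09 and 0.75. On the left all but 2 points are open and lie around 0, and on the right 36 of 40 are filled.

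The cyclins and kinases of G1 and S phase differed among themselves. In wild-type cells 6 of the 8 were higher and 1 lower, with a median log2 fold change of 0.47. After auxin 0 of 8 were called, and 2 were higher at an unadjusted p under 0.05. Ccne1, a cyclin that activates Cdk2 at the entry to S phase, was at 61.2 and 73.2 CPM in the untreated, 62.03 and 63.5 CPM in the auxin-treated and 163 and 152 CPM in the wild-type libraries. The wild-type values lay far above those of the other 4 libraries (log2 fold change 1.22, standard error 0.09, edgeR adjusted p = 3.91e-07). The related Ccne2 was at 8.72 and 7.22 CPM in the untreated, 13.1 and 9.55 CPM in the auxin-treated and 13.9 and 15.9 CPM in the wild-type libraries. It had few counts, and was higher in wild type (log2 fold change 0.90, standard error 0.16, edgeR adjusted p = 0.000425). After auxin both of its libraries also lay above the untreated ones, but at these counts the test did not call it (log2 fold change 0.53, standard error 0.18, edgeR adjusted p = 0.123).

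Of the D cyclins, which link growth signals to Cdk4 and Cdk6, Ccnd3 was at 96.97 and 107 CPM in the untreated, 95.9 and 110.2 CPM in the auxin-treated and 200.1 and 196 CPM in the wild-type libraries, so that the wild-type libraries stood apart (log2 fold change 0.95, standard error 0.07, edgeR adjusted p = 4.54e-07). Ccnd1 was at 55.5 and 45.2 CPM in the untreated, 53.8 and 59.1 CPM in the auxin-treated and 75.3 and 79.5 CPM in the wild-type libraries. Its untreated replicates differed more from each other than the other pairs did, and wild type was higher (log2 fold change 0.61, standard error 0.09, edgeR adjusted p = 0.000145). For Ccnd2 no difference was called between wild type and untreated (log2 fold change 0.09, standard error 0.11, edgeR adjusted p = 0.516), and after auxin both libraries lay above the untreated ones, again without a call (log2 fold change 0.31, standard error 0.10, edgeR adjusted p = 0.0899). Their partner kinases differed less, in value, than most cyclins. Cdk4 was slightly lower in wild type (log2 fold change −0.16, standard error 0.06, edgeR adjusted p = 0.0357), while Cdk2 (log2 fold change 0.20, edgeR adjusted p = 0.018) and Cdk6 (log2 fold change 0.33, edgeR adjusted p = 0.0159) were slightly higher. DESeq2 called none of these 3 kinases. Without either wild-type replicate Cdk2 and Cdk4 were not called (edgeR adjusted p = 0.0835 and 0.151 for Cdk2, 0.219 and 0.369 for Cdk4). After auxin the log2 fold changes of these 3 kinases were 0.01, −0.08 and −0.02, none of them called.

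E2F1, E2F2 and E2F3 activate the genes of DNA synthesis, and Rb1 encodes the protein that restrains them. All 4 mRNAs were higher in wild-type cells and 0 were called after auxin, also at an unadjusted p under 0.05, where their log2 fold changes ran from −0.10 to 0.07. E2f2 showed the second largest difference of the 40 members between wild type and untreated. It was at 7.53 and 6.12 CPM in the untreated, 7.09 and 7.04 CPM in the auxin-treated and 21.4 and 19.97 CPM in the wild-type libraries (log2 fold change 1.59, standard error 0.14, edgeR adjusted p = 2.64e-06). The wild-type libraries did not overlap with any of the other 4. E2f1 was at 45.4 and 48.8 CPM in the untreated, 39.9 and 46.9 CPM in the auxin-treated and 87.95 and 89.9 CPM in the wild-type libraries (log2 fold change 0.91, standard error 0.07, edgeR adjusted p = 9.24e-07). E2f3 was at 28.95 and 29.98 CPM in the untreated, 30.98 and 30.01 CPM in the auxin-treated and 45.6 and 46.9 CPM in the wild-type libraries (log2 fold change 0.64, standard error 0.08, edgeR adjusted p = 2.66e-05). Rb1 was at 16.5 and 14.2 CPM in the untreated, 14.6 and 14.3 CPM in the auxin-treated and 21.6 and 22.8 CPM in the wild-type libraries (log2 fold change 0.52, standard error 0.11, edgeR adjusted p = 0.00186). Rb1 lies over other annotated genes on both strands, so its counts are less certain.

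Neither of the CDK inhibitors was higher in wild type. Cdkn1b, which encodes p27 and binds cyclin E with Cdk2, was at 63.2 and 62.03 CPM in the untreated, 53.7 and 52.3 CPM in the auxin-treated and 62.2 and 64.4 CPM in the wild-type libraries. Wild type and untreated overlapped (log2 fold change 0.01, standard error 0.07, edgeR adjusted p = 0.926), and both auxin-treated libraries lay below the untreated ones without a call (log2 fold change −0.22, standard error 0.07, edgeR adjusted p = 0.109). Cdkn2a, a locus that encodes p16 and p19ARF from alternative first exons, was at 37.5 and 36.6 CPM in the untreated, 43.3 and 42.5 CPM in the auxin-treated and 27.2 and 26.6 CPM in the wild-type libraries. It was lower in wild type (log2 fold change −0.47, standard error 0.08, edgeR adjusted p = 0.000394), and in the auxin-treated libraries it lay above the untreated level without a call (log2 fold change 0.23, standard error 0.08, edgeR adjusted p = 0.126). Gene counts do not separate the transcripts of the locus.

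Among the 9 licensing genes, 7 were higher in wild type and 2 were not called, with a median log2 fold change of 0.71. After auxin 1 of 9 was called, Cdt1 (4 were lower at an unadjusted p under 0.05), and all 9 values were negative, from −0.37 to −0.08. Both auxin-treated libraries lay below both untreated ones for 8 of them, as they did for 28.4% of all genes tested. Summed over the 9 genes, the untreated replicates were themselves apart, at 1964 and 2246 CPM, beside 1844 and 1922 CPM in the auxin-treated ones. Cdc6, the ATPase that loads the ring together with Cdt1, was at 30.7 and 33.01 CPM in the untreated, 25.2 and 27.2 CPM in the auxin-treated and 70.2 and 68.9 CPM in the wild-type libraries. It showed the largest wild-type difference of the licensing genes (log2 fold change 1.12, standard error 0.07, edgeR adjusted p = 2.57e-07). Gmnn, the inhibitor of Cdt1, was at 53.9 and 60.4 CPM in the untreated, 46.3 and 48.1 CPM in the auxin-treated and 94.6 and 93.4 CPM in the wild-type libraries (log2 fold change 0.71, standard error 0.07, edgeR adjusted p = 9.15e-06). Cdt1 itself was not called in wild type (log2 fold change 0.17, standard error 0.07, edgeR adjusted p = 0.0677), although its wild-type libraries lay above the untreated ones. After auxin Cdc6 (−0.26, edgeR adjusted p = 0.13) and Gmnn (−0.26, edgeR adjusted p = 0.0955) had values nearest to that of Cdt1 and were not called.

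The 6 subunits of the MCM ring, which form one helicase, spanned log2 fold changes from −0.02 to 0.99 between wild type and untreated cells, with standard errors of 0.06 to 0.08. Differences between subunits were not tested. Mcm6 was at 214 and 234 CPM in the untreated, 199 and 207 CPM in the auxin-treated and 452 and 446 CPM in the wild-type libraries (log2 fold change 0.99, standard error 0.06, edgeR adjusted p = 1.96e-07). Mcm4 was at 163 and 184 CPM in the untreated, 157 and 161 CPM in the auxin-treated and 301 and 302 CPM in the wild-type libraries (log2 fold change 0.79, standard error 0.07, edgeR adjusted p = 1.77e-06). Mcm7, whose annotation overlaps the microRNA genes Mir25, Mir93 and Mir106b, was at 241 and 269 CPM in the untreated, 225 and 236 CPM in the auxin-treated and 424 and 431 CPM in the wild-type libraries (log2 fold change 0.74, standard error 0.07, edgeR adjusted p = 2.69e-06). These 3 subunits had the largest values of the 6, and none of their wild-type libraries overlapped with the others. Mcm3 was at 276 and 337 CPM in the untreated, 259 and 267 CPM in the auxin-treated and 463 and 442 CPM in the wild-type libraries (log2 fold change 0.55, standard error 0.08, edgeR adjusted p = 0.000161). For Mcm2, at 373 and 417 CPM in the untreated, 360.2 and 373 CPM in the auxin-treated and 487 and 486 CPM in the wild-type libraries, the difference was smaller (log2 fold change 0.29, standard error 0.07, edgeR adjusted p = 0.00245). Mcm5 was at 441 and 510.1 CPM in the untreated, 433 and 458 CPM in the auxin-treated and 482 and 462 CPM in the wild-type libraries, so that its wild-type libraries fell between the untreated replicates (log2 fold change −0.02, standard error 0.07, edgeR adjusted p = 0.85). Without untreated replicate 1 it was called lower in wild type (log2 fold change −0.12, edgeR adjusted p = 0.0134).

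Per length of exon, Mcm5 was the most abundant of the 6 in untreated cells, at 110.4 and 128 RPKM in the 2 libraries, and Mcm6 the least, at 45.96 and 50.2 RPKM, a ratio of 2.48 between their means. In wild-type cells Mcm3 was highest (123 and 118 RPKM) and Mcm2 lowest (70.1 and 69.8 RPKM), a ratio of 1.72. Mcm3 and Mcm5 overlapped there, since Mcm5 was at 121 and 116 RPKM. Exon lengths are unions over annotated transcripts, 6956 bases for Mcm2 and 3752 for Mcm3. By CPM, Mcm2 (487 and 486) lay above Mcm3 (463 and 442) in wild type. The order and ratios of the subunits therefore depend on these lengths. The auxin-treated libraries kept the same highest and lowest subunit as the untreated ones, at a ratio of 2.56, and the log2 fold changes of the 6 after auxin lay between −0.20 and −0.08, with 0 called.

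**Figure D4:**
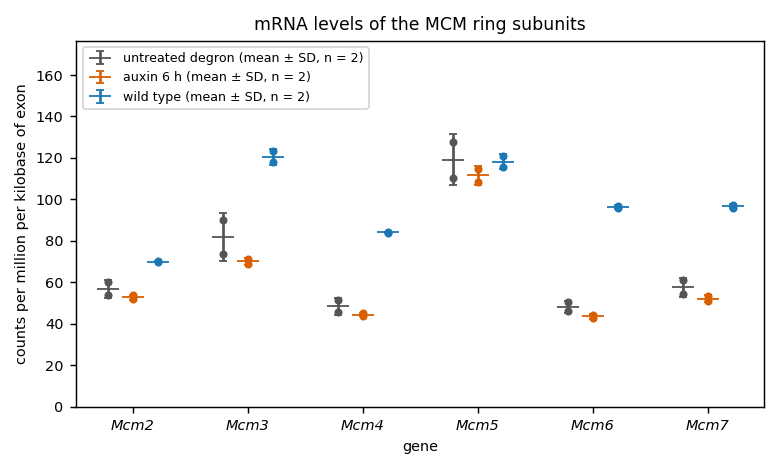
Levels of Mcm2 to Mcm7 per kilobase of exon in each library (points) with the mean and SD of 2 libraries (dashes and bars) in untreated (grey), auxin-treated (orange) and wild-type cells (blue). Mcm5 shows overlapping groups at 108 to 128 RPKM, while for Mcm4, Mcm6 and Mcm7 the blue points lie far above the others.

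The sequences before Mcm5 and Mcm6 are shown since these subunits had the smallest and the largest value in wild type. Both hold E2F words, with 2 matches in Mcm5 and 3 in Mcm6, some of which overlap, and 2 CCAAT boxes each. Capitals mark E2F words and CCAAT boxes, in the 250 bases before each gene's start, which hold no annotated exon.
Mcm5, chr8:75109259-75109508, plus strand: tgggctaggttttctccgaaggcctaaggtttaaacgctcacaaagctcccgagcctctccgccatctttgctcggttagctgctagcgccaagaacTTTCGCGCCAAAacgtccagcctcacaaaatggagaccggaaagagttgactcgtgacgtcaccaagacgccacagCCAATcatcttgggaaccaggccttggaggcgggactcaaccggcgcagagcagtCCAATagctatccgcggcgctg
Mcm6, chr1:128359706-128359955, minus strand: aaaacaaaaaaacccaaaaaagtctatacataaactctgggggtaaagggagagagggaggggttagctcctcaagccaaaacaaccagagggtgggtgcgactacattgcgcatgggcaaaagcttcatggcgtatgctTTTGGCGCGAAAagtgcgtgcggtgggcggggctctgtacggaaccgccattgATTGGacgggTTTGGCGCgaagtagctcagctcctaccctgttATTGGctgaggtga
Pcna, the sliding clamp that holds DNA polymerases at the fork, was at 223 and 241 CPM in the untreated, 229 and 218 CPM in the auxin-treated and 378 and 376 CPM in the wild-type libraries. It was higher in wild type (log2 fold change 0.70, standard error 0.06, edgeR adjusted p = 2.44e-06) and was not called after auxin (log2 fold change −0.03, standard error 0.07, edgeR adjusted p = 0.852). Pcna shares 10.1% of its 100-base stretches with the transcript of a pseudogene, Pcna-ps2.

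The cyclins of G2 and M phase and Cdk1 had close values in wild type, with all 4 called higher and log2 fold changes from 0.86 to 1.00. Ccna2, the cyclin of S and G2 phase, was at 143 and 142 CPM in the untreated, 145 and 144 CPM in the auxin-treated and 273 and 266 CPM in the wild-type libraries (log2 fold change 0.91, standard error 0.06, edgeR adjusted p = 2.11e-07). Ccnb1, which enters the nucleus with Cdk1 at the start of mitosis, was at 259 and 280.1 CPM in the untreated, 214 and 234 CPM in the auxin-treated and 547 and 534 CPM in the wild-type libraries (log2 fold change 1.00, standard error 0.06, edgeR adjusted p = 1.83e-07). Of its 100-base stretches 14.9% also occur in transcripts of other genes, foremost the pseudogene Ccnb1-ps. Ccnb2 was at 141 and 153 CPM in the untreated, 139.9 and 142 CPM in the auxin-treated and 274 and 262 CPM in the wild-type libraries (log2 fold change 0.86, standard error 0.06, edgeR adjusted p = 6.69e-07), and Cdk1, the kinase they bind, at 107 and 106 CPM in the untreated, 96.8 and 94.4 CPM in the auxin-treated and 207 and 204 CPM in the wild-type libraries (log2 fold change 0.94, standard error 0.06, edgeR adjusted p = 2.01e-07). After auxin 0 of the 4 were called, and 1 was lower at an unadjusted p under 0.05. Ccnb1 came closest, with both auxin-treated libraries below the untreated ones (log2 fold change −0.25, standard error 0.07, edgeR adjusted p = 0.0758), while Ccna2 and Ccnb2 had log2 fold changes of 0.04 and −0.04.

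Cdc25 phosphatases remove the inhibitory phosphates from CDKs that Wee1 puts on. The mRNAs of both kinds were higher in wild type. Cdc25a was at 78.6 and 86.99 CPM in the untreated, 67.8 and 68.2 CPM in the auxin-treated and 163 and 161 CPM in the wild-type libraries (log2 fold change 0.96, standard error 0.07, edgeR adjusted p = 4.85e-07). Cdc25b was at 27.8 and 30.5 CPM in the untreated, 26.8 and 28.9 CPM in the auxin-treated and 50.2 and 49.1 CPM in the wild-type libraries (log2 fold change 0.76, standard error 0.08, edgeR adjusted p = 9.33e-06), and Cdc25c at 25.04 and 24.6 CPM in the untreated, 22.7 and 23.1 CPM in the auxin-treated and 40.4 and 40.1 CPM in the wild-type libraries (log2 fold change 0.69, standard error 0.08, edgeR adjusted p = 2.01e-05). Wee1 had the smallest value of the 4 (log2 fold change 0.43, standard error 0.08, edgeR adjusted p = 0.000566). After auxin all 4 values were negative and none was called (2 were lower at an unadjusted p under 0.05), with Cdc25a at −0.27 (edgeR adjusted p = 0.064) and Wee1 at −0.21 (edgeR adjusted p = 0.166).

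The proteins of mitosis and of chromosome structure had the highest median of the roles. All 8 were higher in wild type, with a median log2 fold change of 1.05, and 4 of the 7 members past 1 were among them. Mki67 encodes Ki-67, a coat of mitotic chromosomes widely used as a mark of cycling cells, and lies on chromosome 7 from 135689784 to 135716361, with Gm45240 on the other strand. It was at 168 and 166 CPM in the untreated, 173 and 172 CPM in the auxin-treated and 520.5 and 548 CPM in the wild-type libraries. The wild-type level was 3.19-fold the untreated one, and the other 4 libraries lay within a few CPM of each other (log2 fold change 1.67, standard error 0.06, edgeR adjusted p = 2.62e-09). After auxin Mki67 was not called (log2 fold change 0.07, standard error 0.06, edgeR adjusted p = 0.613). Top2a, the topoisomerase that untangles sister chromatids, was at 636 and 677 CPM in the untreated, 609 and 588 CPM in the auxin-treated and 1419 and 1455 CPM in the wild-type libraries (log2 fold change 1.12, standard error 0.06, edgeR adjusted p = 8.61e-08).

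The spindle checkpoint kinase Bub1 and its relative Bub1b, which holds back the anaphase-promoting complex, were both higher in wild type. Bub1b was at 152 and 168 CPM in the untreated, 131 and 142 CPM in the auxin-treated and 361 and 360.3 CPM in the wild-type libraries (log2 fold change 1.17, standard error 0.06, edgeR adjusted p = 7.26e-08). Bub1 was at 137 and 139 CPM in the untreated, 141 and 139 CPM in the auxin-treated and 227 and 234 CPM in the wild-type libraries (log2 fold change 0.74, standard error 0.06, edgeR adjusted p = 1.14e-06). Cdc20, the activator of the anaphase-promoting complex that these proteins restrain, was at 225 and 246 CPM in the untreated, 247 and 263 CPM in the auxin-treated and 387 and 373 CPM in the wild-type libraries (log2 fold change 0.68, standard error 0.06, edgeR adjusted p = 3.81e-06). Its auxin-treated libraries lay just above the untreated ones without a call (log2 fold change 0.14, standard error 0.07, edgeR adjusted p = 0.318). Among the mitotic kinases, Plk1, which acts at centrosomes and kinetochores, was at 100.5 and 112 CPM in the untreated, 87.7 and 96.7 CPM in the auxin-treated and 212 and 210.4 CPM in the wild-type libraries (log2 fold change 0.98, standard error 0.07, edgeR adjusted p = 3.78e-07). Aurkb, the kinase of the chromosomal passenger complex, was at 55.5 and 59.7 CPM in the untreated, 53.6 and 52.8 CPM in the auxin-treated and 132 and 120.3 CPM in the wild-type libraries (log2 fold change 1.12, standard error 0.07, edgeR adjusted p = 2.58e-07). Aurka, lower after auxin, was higher in wild type (log2 fold change 0.97, standard error 0.06, edgeR adjusted p = 2.58e-07).

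A further list of 119 cell cycle genes, in 6 sets, was examined in the same fits, of which all but Ccnb3 were tested. In wild type 83 of the 118 were higher and 7 lower, with a median log2 fold change of 0.43. After auxin 0 were higher and 4 lower (3 and 18 at an unadjusted p under 0.05), with a median of −0.09. The shares over all genes tested, given above, were 29.9% and 30.7% in wild type and 2.56% and 1.64% after auxin. Spindle, kinetochore and checkpoint genes had the highest share in wild type, with 25 of 28 higher and 1 lower (median 0.85). Fork and nucleotide supply genes followed, with 22 of 25 higher and 0 lower (median 0.47). Of origin recognition and firing genes 12 of 19 were higher and 2 lower, of cell cycle ubiquitin ligase genes 10 of 18 and 1, of other E2F, pocket and DREAM genes 9 of 15 and 2, and of other cyclins, CDK partners and inhibitors 5 of 13 and 1.

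By the smallest p-values, Rrm2, Cenpf, Ube2c and Prc1 led the genes higher in wild type. Rrm2, the subunit of ribonucleotide reductase that limits dNTP supply, was at 82.04 and 91.3 CPM in the untreated, 68.9 and 66.2 CPM in the auxin-treated and 334 and 326 CPM in the wild-type libraries. It differed more than any of the 40 members between wild type and untreated (log2 fold change 1.92, standard error 0.07, edgeR adjusted p = 2.26e-09), and it was called lower after auxin (log2 fold change −0.34, standard error 0.08, edgeR adjusted p = 0.0251). Cenpf, a kinetochore protein, was at 149.9 and 129 CPM in the untreated, 147 and 139 CPM in the auxin-treated and 468 and 477 CPM in the wild-type libraries (log2 fold change 1.75, standard error 0.07, edgeR adjusted p = 8.81e-09). Ube2c, the ubiquitin-conjugating enzyme of the anaphase-promoting complex, and Prc1, which bundles midzone microtubules, differed by 1.23 and 1.03. The genes lower in wild type with the smallest p-values were Cdkn1c (p57, −0.55), E2f6 (−0.35), Orc5 (−0.25) and E2f4 (−0.23), with edgeR adjusted p-values of 0.000765, 0.00656, 0.00785 and 0.00916. E2f6 and E2f4 encode repressing members of the E2F family.

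After auxin the 4 called genes of this list were Fbxo5, Rrm2, Ect2 and Chaf1a. Fbxo5 encodes Emi1, an inhibitor of the anaphase-promoting complex, and had the largest change of the 4. It was at 59.6 and 60.6 CPM in the untreated, 44.1 and 42.99 CPM in the auxin-treated and 123 and 124 CPM in the wild-type libraries (log2 fold change −0.45, standard error 0.08, edgeR adjusted p = 0.00683). Ect2, an exchange factor of cytokinesis, was at 151 and 152 CPM in the untreated, 123 and 124 CPM in the auxin-treated and 299.8 and 315 CPM in the wild-type libraries (log2 fold change −0.28, standard error 0.06, edgeR adjusted p = 0.0318). Chaf1a, a subunit of the histone chaperone CAF-1, was at 75.8 and 80.4 CPM in the untreated, 63.3 and 62.3 CPM in the auxin-treated and 116 and 116 CPM in the wild-type libraries (log2 fold change −0.30, standard error 0.07, edgeR adjusted p = 0.0367). In each of these the 2 auxin-treated libraries lay below both untreated ones, as they did for 28.4% of all genes tested. All 4 were higher in wild type than in untreated cells. Without auxin-treated replicate 1, Rrm2, Ect2 and Chaf1a were not called, and without replicate 2 none of the 4 was. None of the 4 was called with scaling to mitochondrial mRNAs or without the filter on low counts, and DESeq2 called only Fbxo5. In these last fits the median of all genes moved to −0.17, −0.02 and −0.01, in the same order. The log2 fold changes of the 4 genes in them were as large or larger. They were −0.35, −0.29 and −0.31 for Rrm2, Ect2 and Chaf1a with DESeq2, and −0.47 and −0.36 for Fbxo5 and Rrm2 without the filter.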

How the data were processed

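RNA was measured by polyA RNA-Seq in 6 libraries. The authors aligned paired reads to mm10 with HISAT2 2.1.0 and obtained counts per GENCODE gene with salmon and htseq-count, and the deposited tables hold these raw counts, with the release and strand setting not given in the sources used here. Reads shared by a gene with an antisense gene or a close copy can therefore be misassigned. The tables also hold the authors' own DESeq2 comparisons and 2 per-sample columns matched to no sample, none of which were used. Totals ran from 14094022 to 15358714 counts per library.

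Genes were filtered with filterByExpr (minimum count 10), scaled by TMM and tested with edgeR 4.0.16 in R 4.3.3 (glmQLFit and glmQLFTest) on the 4 libraries of each comparison, with Benjamini-Hochberg adjustment over all genes tested and a threshold of 0.05. The prior count was 0.125. The standard error of a log2 fold change was its size over the square root of F. DESeq2 1.42.0, other scalings, filters, designs and left-out libraries were tried as alternatives. The fits were tested on simulated data. Of genes given a 1.5-fold change, 64 of 104 were recovered in the auxin comparison and 62 of 92 in the wild-type one. At 2-fold these were 75 of 93 and 85 of 104. False calls numbered 6 in the auxin and 5 in the wild-type simulations at each fold. The paper calls the replicates biological, but neither it nor the labels say that they came from separate cultures, so p-values measure only the spread between these samples, which may be technical. RPKM is CPM per 1000 bases of the union of a gene's exons (GENCODE vM21).

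All 40 members are named. Values in every library are given for members called after auxin and for members called in wild type with an absolute log2 fold change over 0.5. Of the further list, up to 4 called genes with the smallest p in each direction are named. Genes outside these rules that are singled out were chosen after their values were seen. The members and lists were chosen with earlier results of these data known.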

Additional observations from a re-analysis of the deposited data

How the results depend on the processing

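With 2 libraries a group, counts of calls after auxin depended on the settings. The 677 genes called after auxin became 236 with DESeq2, 219 with scaling to mitochondrial mRNAs, 55 without a filter, 432 with at least 10 counts in every library, 1930 with the replicate block, 1235 with all 3 groups in one fit, 247 with a log2 fold change over 1 required, and 179 to 2724 with 1 library left out. Members called higher (0) became 2 with the replicate block and 0 to 2 with 1 library left out, and members called lower (2) became 0 with mitochondrial scaling, 0 without a filter, 9 with the block, 8 with 3 groups, 0 with a log2 fold change over 1, and 0 to 15 with 1 library left out. Genes of the further list called higher (0) became 2 with the block, 1 with 3 groups and 0 to 2 with 1 library left out, and those called lower (4) became 1 with DESeq2, 0 with mitochondrial scaling, 0 without a filter, 13 with the block, 11 with 3 groups, 0 with a log2 fold change over 1 and 0 to 28 with 1 library left out. The members' median after auxin was −0.25 with mitochondrial scaling, which put the median of all genes at −0.17, and between −0.13 and −0.05 with 1 library left out. Higher calls were 61.0% of all calls after auxin, 76.3% with mitochondrial scaling, 78.2% without a filter, 45.9% with 3 groups, 97.2% with a log2 fold change over 1 required, and 81.0% and 79.3% without auxin-treated replicate 1 and 2. In wild type the 9555 genes called became 15308 with mitochondrial scaling and 2861 with a log2 fold change over 1, members called higher (34) became 0 and 7, and genes of the further list called higher (83) became 0 and 12. Members called lower in wild type (2) became 1 with DESeq2, 1 without a filter, 1 with the block, 40 with mitochondrial scaling, 0 with a log2 fold change over 1 and 1 to 3 with 1 library left out, and those of the further list (7) became 3 with DESeq2, 3 without a filter, 13 with library totals, 116 with mitochondrial scaling, 0 with a log2 fold change over 1 and 2 to 11 with 1 library left out. The members' median was 0.69 with library totals, −1.34 with mitochondrial scaling and 0.72 to 0.81 with 1 library left out. Higher calls were 49.3% of calls in wild type, 43.7% with library totals, 39.3% with a log2 fold change over 1 required and 0.477% with mitochondrial scaling. That scaling turned the direction of these genes in wild type, on the log2 scale: Ccnd1 −1.50, Ccnd2 −2.00, Ccnd3 −1.14, Ccne1 −0.86, Ccne2 −1.20, Cdk2 −1.90, Cdk6 −1.76, E2f1 −1.18, E2f2 −0.51, E2f3 −1.45, Rb1 −1.58, Cdkn1b −2.09, Cdc6 −0.97, Cdt1 −1.92, Gmnn −1.38, Mcm2 −1.80, Mcm3 −1.53, Mcm4 −1.30, Mcm6 −1.10, Mcm7 −1.35, Pcna −1.40, Ccna2 −1.19, Ccnb1 −1.10, Ccnb2 −1.23, Cdk1 −1.16, Cdc25a −1.13, Cdc25b −1.33, Cdc25c −1.41, Wee1 −1.67, Cdc20 −1.41, Aurka −1.12, Aurkb −0.97, Plk1 −1.11, Bub1 −1.36, Bub1b −0.92, Top2a −0.97, Mki67 −0.42, Rrm2 −0.17, Cenpf −0.35, Ube2c −0.86, Prc1 −1.07, Polr2a −2.00. Why the scalings differ was not tested. Where 1 library of a group was left out, the lone library was assumed to vary like the other group. Neither the paper nor the labels say whether the replicate numbers pair the samples. Deviations of same-numbered libraries correlated at 0.11 after auxin and −0.06 in wild type across genes. With 2 pairs this cannot settle whether they were paired. Each member had at least 89 counts in every library, so no member lay near the count minimum.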
